A study of Mus musculus with 8 samples.

Results

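Of the 49405 H3K27me3 peaks called in Utx-cKO chondrocytes, 753 (1.52%) ran without a break over at least 2 separate peaks of the wild-type list, each of these under 5000 bp long. They are called bridging domains here, and the stretch between neighbouring wild-type peaks inside such a domain is called a bridged gap. The domains were chosen by comparing the Utx-cKO list with the wild-type list, so that a Utx-cKO domain joins what the wild-type list keeps apart follows from the choice and is described without a test. Together they spanned 1605 wild-type peaks and 852 gaps. Another 118 Utx-cKO peaks joined wild-type peaks of which at least 1 reached 5000 bp and are outside the rule, 22748 (46.0%) touched 1 wild-type peak, and 25786 (52.2%) touched none. Histone H3 trimethylated at lysine 27 (H3K27me3) was profiled by chromatin immunoprecipitation and sequencing (ChIP-seq) in chondrocytes, the matrix-secreting cells of cartilage, taken from mouse cartilage and grown in DMEM with serum. The genotypes were Utx-cKO, Ezh2-cKO (Ezh2-Cko in the labels), Jmjd3-cKO (Jmjd3-Cko) and Wild type, where cKO stands for a conditional knockout. Each genotype had 1 ChIP library and 1 input library, so no difference between genotypes has a replicate check. All values are the authors' called peaks, intervals are 95% Wilson intervals for shares unless stated, and they cover counting error only. The Cre driver, the age of the animals and whether animals were pooled were not stated in the sources used here, and peak lists do not show whether the cells expressed chondrocyte markers.

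H3K27me3 is written by Ezh2, the catalytic subunit of Polycomb repressive complex 2, and removed by the demethylases Utx (encoded by Kdm6a on the X chromosome) and Jmjd3 (encoded by Kdm6b). The mark typically forms broad blankets over CpG-rich promoters of silent developmental regulators, and such blankets can extend from a nucleation site into neighbouring chromatin. In growth-plate cartilage, Ezh2 and its counteracting demethylases are known to affect chondrocyte proliferation and maturation.

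The Utx-cKO list held 49405 peaks over 74.3 Mb, the Ezh2-cKO list 33739 peaks over 48.1 Mb, the Jmjd3-cKO list 27013 peaks over 41.4 Mb and the wild-type list 28057 peaks over 40.5 Mb. The ChIP libraries behind them held 34359111, 34786292, 25655346 and 29222251 fragments after duplicate removal, in that order of genotypes, and the inputs 23983492, 24041619, 16645811 and 16599532. Library titles carry 1 prefix for Utx-cKO and Jmjd3-cKO, another for Ezh2-cKO and another for wild type, so what the prefix stands for and the genotype cannot be told apart in any comparison with wild type. The shortest gap between neighbouring peaks was 896 bp in Utx-cKO, 925 bp in Ezh2-cKO, 985 bp in Jmjd3-cKO and 916 bp in wild type. In each list that is just above 4 times the fragment size in its header, at 892, 924, 984 and 912 bp. A gap is therefore a stretch that did not pass the authors' threshold and was too long to be joined, and it is not read as a stretch without the mark. A called peak is also not read as repression: 29 of 30 housekeeping genes had a Utx-cKO peak within 2 kb of a gene end, against 14820 of 21887 protein-coding genes (67.7%). Wild-type peaks lay at 29 of the 30 and 13639 of the 21887. They lay at 29 of 30 limb and skeletal patterning factors, but at 16 of 45 transcription factors of other lineages and 2 of 15 muscle markers. The called peaks are thus not read as the typical blankets over silent regulators.

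The sequences that these domains add to the peaks of the wild-type list include a few promoters. RefSeq promoter windows (300 bases, from 250 before to 50 after a gene start, GRCm38.p6) lay wholly inside a bridged gap for 18 promoters of 17 genes. The 6 in the longest gaps are printed here 5′ to 3′ on the strand of the gene, with every CG dinucleotide in capitals, to let their CpG content be set beside that of promoters inside the bridged wild-type peaks. Syt8 (chr7:142436584-142436883, plus strand) encodes a member of the synaptotagmin family, Clec11a (chr7:44306910-44307209, minus strand) a secreted growth factor for skeletal progenitors, Mybph (chr1:134193198-134193497, plus strand) a myosin-binding protein, Sertad4 (chr1:192851698-192851997, minus strand) a SERTA-domain protein, Rnaseh2a (chr8:84966027-84966326, minus strand) the catalytic subunit of ribonuclease H2, and Gsn (chr2:35266494-35266793, plus strand) the actin-severing protein gelsolin.
Syt8: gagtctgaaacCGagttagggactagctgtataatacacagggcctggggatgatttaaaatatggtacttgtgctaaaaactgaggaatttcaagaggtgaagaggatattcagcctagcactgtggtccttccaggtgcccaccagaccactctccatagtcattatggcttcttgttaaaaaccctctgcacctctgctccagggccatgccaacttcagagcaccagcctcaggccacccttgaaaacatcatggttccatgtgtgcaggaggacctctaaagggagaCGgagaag
Clec11a: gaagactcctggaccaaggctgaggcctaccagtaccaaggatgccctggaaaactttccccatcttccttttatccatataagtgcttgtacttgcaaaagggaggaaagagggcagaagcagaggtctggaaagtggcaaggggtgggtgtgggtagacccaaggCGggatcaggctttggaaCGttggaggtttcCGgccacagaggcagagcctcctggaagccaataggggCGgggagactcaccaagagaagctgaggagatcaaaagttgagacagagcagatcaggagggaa
Mybph: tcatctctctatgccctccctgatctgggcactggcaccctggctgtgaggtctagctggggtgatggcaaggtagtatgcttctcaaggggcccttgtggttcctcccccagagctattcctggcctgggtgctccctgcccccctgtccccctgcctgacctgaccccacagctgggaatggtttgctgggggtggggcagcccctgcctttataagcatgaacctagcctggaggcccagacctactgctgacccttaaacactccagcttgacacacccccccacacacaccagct
Sertad4: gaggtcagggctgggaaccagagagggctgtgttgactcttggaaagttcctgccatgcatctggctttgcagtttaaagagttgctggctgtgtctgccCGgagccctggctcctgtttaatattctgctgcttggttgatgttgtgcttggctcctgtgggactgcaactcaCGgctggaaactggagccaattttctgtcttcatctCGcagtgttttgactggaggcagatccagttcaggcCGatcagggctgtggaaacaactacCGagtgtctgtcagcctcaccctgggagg
Rnaseh2a: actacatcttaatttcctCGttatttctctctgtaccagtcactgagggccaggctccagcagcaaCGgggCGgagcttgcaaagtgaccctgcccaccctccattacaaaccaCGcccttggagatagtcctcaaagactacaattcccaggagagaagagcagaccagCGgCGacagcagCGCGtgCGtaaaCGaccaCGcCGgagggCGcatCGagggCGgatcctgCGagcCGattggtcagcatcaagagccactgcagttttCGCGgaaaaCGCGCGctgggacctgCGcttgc
Gsn: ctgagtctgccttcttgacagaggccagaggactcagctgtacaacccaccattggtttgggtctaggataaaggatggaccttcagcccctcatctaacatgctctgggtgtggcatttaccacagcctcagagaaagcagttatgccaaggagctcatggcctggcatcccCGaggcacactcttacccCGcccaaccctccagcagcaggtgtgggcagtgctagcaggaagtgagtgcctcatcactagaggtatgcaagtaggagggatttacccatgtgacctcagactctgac

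For contrast, chosen after the values were seen, the promoters of Fgfr3 (chr5:33722056-33722355, plus strand) and Nfic (chr10:81427124-81427423, minus strand) lie inside wild-type peaks that are joined to neighbours in Utx-cKO.
Fgfr3: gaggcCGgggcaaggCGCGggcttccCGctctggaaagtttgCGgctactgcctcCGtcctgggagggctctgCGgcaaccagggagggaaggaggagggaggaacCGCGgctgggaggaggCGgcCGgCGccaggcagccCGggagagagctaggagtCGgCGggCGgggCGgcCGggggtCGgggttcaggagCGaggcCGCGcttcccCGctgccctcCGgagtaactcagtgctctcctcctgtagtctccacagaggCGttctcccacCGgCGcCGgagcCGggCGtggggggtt
Nfic: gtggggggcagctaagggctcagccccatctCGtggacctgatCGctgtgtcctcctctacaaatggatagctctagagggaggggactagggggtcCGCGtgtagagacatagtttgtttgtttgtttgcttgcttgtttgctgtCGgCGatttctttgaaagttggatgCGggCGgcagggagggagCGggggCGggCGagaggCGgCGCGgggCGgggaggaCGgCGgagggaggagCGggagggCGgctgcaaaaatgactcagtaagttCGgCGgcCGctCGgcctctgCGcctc

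The windows of Syt8, Clec11a, Mybph, Sertad4 and Gsn held 2, 4, 0, 5 and 2 CG dinucleotides, and that of Rnaseh2a held 23. The Fgfr3 and Nfic windows held 30 and 24. Over all 18 promoters inside bridged gaps the median was 4 CG dinucleotides, with a range from 0 to 23. The 442 promoters wholly inside a bridged wild-type peak had a median of 24, and the median of all 21263 promoters was 13. Median GC content was 54% in the gaps, 64.2% in the bridged wild-type peaks and 56.3% over all promoters. The motif GGGCGG, searched on both strands, was present in 7 of the 18 gap promoters (38.9%), in 80.3% of the promoters in bridged wild-type peaks and in 46.2% of all promoters. CCAAT was found in 38.9%, 36.2% and 38.2% of the same sets and TATAAA in 22.2%, 5.88% and 12.6%. The promoters in the gaps were thus mostly lower in CpG than those of the joined peaks, with Rnaseh2a as an exception, and their shares rest on 18 windows. The 2 sets differ by choice in whether a wild-type peak covers them. Promoters in wild-type gaps that Utx-cKO did not bridge were not examined, so low CpG is not read as a trait of bridging.

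Bridged gaps were short. Their median length was 1391.5 bp (95% order-statistic interval 1354 to 1447 bp, n = 852), the middle 50% lay between 1106 and 2043.25 bp, and the extremes were 916 and 8783 bp. The domains themselves had a median length of 5752 bp, against 945 bp for all Utx-cKO peaks, and gaps made up a median 29.5% of a domain. A domain reached a median of 904 bp in total beyond its outermost wild-type peaks. Of the 753 domains, 671 (89.1%) joined 2 wild-type peaks, 70 joined 3, 9 joined 4, 2 joined 5 and 1 joined 7. Domain fold enrichment over input, the authors' value for a peak, had a median of 5.81 and ranged from 2.53 to 23.1. By fold enrichment the median domain ranked at percentile 78.4 of the Utx-cKO list. The joined wild-type peaks had a median length of 1082 bp and a median fold enrichment of 2.93 in their own list, where all peaks had medians of 997 bp and 3.37. Fold enrichment ranks peaks within a list and is not compared between lists here.

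**Figure D1:**
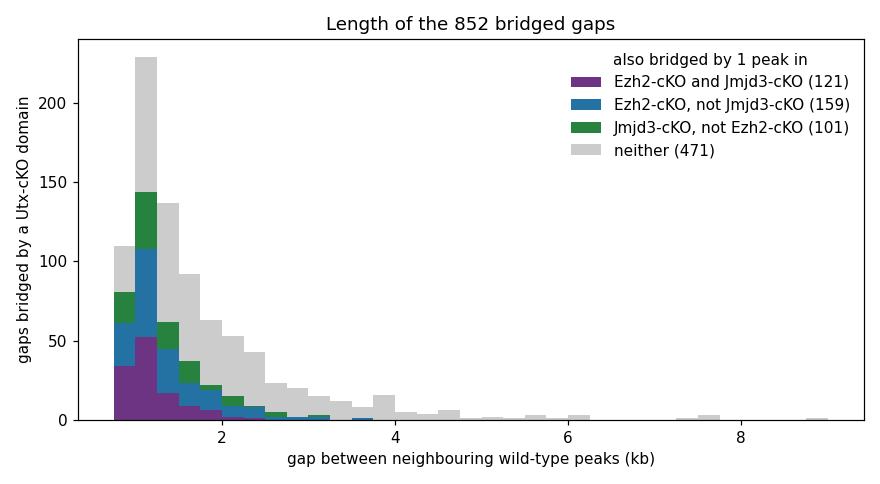
Length of the 852 bridged gaps (x axis, kb, in steps of 0.25 kb) against their number (y axis). Colours split each bar by whether 1 peak of Ezh2-cKO, of Jmjd3-cKO, of both or of neither also covers the whole gap, and the 471 gaps bridged in neither reach farthest to the right.

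The plot of gap lengths falls off steeply from about the smallest possible gap, and the coloured part of each bar shrinks with length. The background for these counts is the set of 6742 neighbouring pairs of wild-type peaks under 5000 bp whose gap was no longer than the longest bridged gap. In Utx-cKO, 1 peak covered the whole gap in 887 of the 6742 pairs (13.2%), of which 852 belong to the domains and 35 to Utx-cKO peaks that also touch a wild-type peak of 5000 bp or more. Ezh2-cKO bridged 362 (5.37%) and Jmjd3-cKO 323 (4.79%). All 3 counts are taken against the same wild-type list and so share it.

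The same rule turned round, and applied to the other lists, gave fewer domains in every other direction from or to wild type. Utx-cKO had 753 domains over wild-type peaks, whereas 111 wild-type domains bridged Utx-cKO peaks, with a median gap of 1080 bp. Ezh2-cKO had 338 domains over wild-type peaks (median gap 1174 bp), and wild type had 176 over Ezh2-cKO peaks. Jmjd3-cKO had 301 over wild-type peaks (median gap 1171.5 bp), and wild type had 149 over Jmjd3-cKO peaks. The part of library depth in these counts was not tested. With the same number of strongest peaks taken from every list (27013), Utx-cKO had 664 domains over wild type and wild type 41 over Utx-cKO. Ezh2-cKO then had 312 against 128 in wild type, and Jmjd3-cKO 289 against 149. Between the knockouts, 971 Utx-cKO domains bridged Ezh2-cKO peaks, against 151 Ezh2-cKO domains over Utx-cKO peaks, and 637 bridged Jmjd3-cKO peaks, against 154 Jmjd3-cKO domains over Utx-cKO peaks.

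Most gaps bridged in Utx-cKO were not bridged in the other knockouts. An Ezh2-cKO peak covered the whole gap in 280 of the 852 (32.9%, 29.8 to 36.1%), and a Jmjd3-cKO peak in 222 (26.1%, 23.2 to 29.1%). Both did so in 121 gaps (14.2%), Ezh2-cKO without Jmjd3-cKO in 159 (18.7%), Jmjd3-cKO without Ezh2-cKO in 101 (11.9%), and neither in 471 (55.3%, 51.9 to 58.6%). Read from the other side, Utx-cKO also bridged 298 of the 362 gaps that Ezh2-cKO bridged (82.3%) and 234 of the 323 that Jmjd3-cKO bridged (72.4%). Among the 5890 other neighbouring wild-type pairs, Ezh2-cKO bridged 82 (1.39%) and Jmjd3-cKO 101 (1.71%). The gaps bridged in neither had a median length of 1712 bp, against 1123 bp for those bridged in both, 1217 bp for those bridged in Ezh2-cKO without Jmjd3-cKO, and 1204 bp for those bridged in Jmjd3-cKO without Ezh2-cKO.

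**Figure D2:**
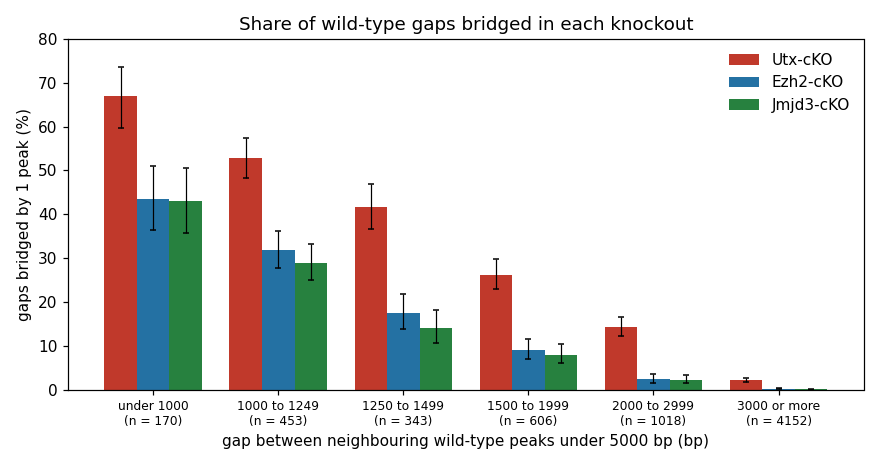
Share of neighbouring wild-type pairs whose gap is covered by 1 peak (y axis, %) by gap length (x axis, bp) in Utx-cKO, Ezh2-cKO and Jmjd3-cKO, with 95% Wilson intervals and the number of pairs under each group of bars. Shares fall with gap length in all 3 knockouts, and from 2000 bp to under 3000 bp they are 14.3% in Utx-cKO, 2.36% in Ezh2-cKO and 2.16% in Jmjd3-cKO.

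In every length class Utx-cKO bridged the largest share of the 3 knockouts, as the plot of shares by gap length shows. Among the 170 wild-type pairs less than 1000 bp apart, 67.1% were bridged in Utx-cKO, 43.5% in Ezh2-cKO and 42.9% in Jmjd3-cKO. Among the 4152 pairs at 3000 bp or more the shares were 2.07%, 0.120% and 0.0241%. Within a length class, gaps bridged in Utx-cKO were also bridged more often in the other knockouts than the remaining pairs were. From 1500 bp to under 2000 bp, Ezh2-cKO bridged 27.1% (20.7 to 34.6%) of the 155 gaps of the domains and 2.88% (1.69 to 4.87%) of the 451 others, and Jmjd3-cKO bridged 20.6% (15.0 to 27.7%) and 3.55% (2.20 to 5.68%). From 2000 bp to under 3000 bp, Ezh2-cKO bridged 15.1% of 139 gaps of the domains and 0.341% of 879 others, and Jmjd3-cKO 9.35% and 1.02%. All 3 knockouts are read against gaps of the same wild-type library here, so their shares are not independent of each other, and these values are a description of the lists. At 3000 bp or more, 3 of 82 gaps of the domains were bridged in Ezh2-cKO (3.66%) and 1 in Jmjd3-cKO (1.22%).

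Most gaps not bridged in another knockout were covered in part there. Ezh2-cKO peaks overlapped both flanking wild-type peaks at 662 of the 852 gaps (77.7%), and 42.3% of these (38.6 to 46.1%) were bridged. Jmjd3-cKO peaks overlapped both flanks at 575 gaps (67.5%), and 38.6% of these (34.7 to 42.7%) were bridged. Of the 572 gaps not bridged in Ezh2-cKO, 463 still had some bases under an Ezh2-cKO peak, a median of 21.5% of the gap, and 109 had none. Of the 630 not bridged in Jmjd3-cKO, 441 were covered in part, by a median of 17.1%, and 189 not at all. Taken over whole domains, the median share of bases under a peak was 62.4% in Ezh2-cKO, 53.7% in Jmjd3-cKO and 47.4% in wild type, the last being fixed in part by the choice of domains. No Ezh2-cKO peak lay at 14 domains and no Jmjd3-cKO peak at 26. Every gap of the domain was bridged in Ezh2-cKO at 226 domains (30.0%), in Jmjd3-cKO at 181 (24.0%) and in both at 97 (12.9%), while 402 domains (53.4%, 49.8 to 56.9%) had no gap bridged in either.

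Bridging domains lay mostly at genes, as long Utx-cKO peaks in general do. An end of a protein-coding gene lay within 2 kb of 491 domains (65.2%, 61.7 to 68.5%), against 16167 of the 49398 Utx-cKO peaks on placed chromosomes (32.7%), most of which are far shorter. At 695 domains (92.3%) the domain overlapped a gene, and 58 domains overlapped none. A gene start lay inside 305 of the 522 domains where the start table was complete (58.4%), and 43 (8.24%) held 2 or more. For a comparison over 1 length range, 377 domains between 4139 and 7944 bp long, the middle 50%, were set beside the 2103 other Utx-cKO peaks in that range. A gene end lay within 2 kb of 67.9% (63.0 to 72.4%) of these domains and of 78.8% (77.0 to 80.5%) of the other peaks. A gene was overlapped by 94.2% and 96.3%, a gene start lay inside 61.8% and 76.8%, and 2 or more starts lay inside 8.88% and 14.3%. Each of these shares was lower in the domains than in the other peaks of the range. The domains there had a median fold enrichment of 6.43 and the other peaks 8.95, and the part of this difference in the shares was not tested. The other peaks are those that the rule leaves out, such as peaks over 1 wild-type peak or over one of 5000 bp or more. The part of the rule in the shares was not tested either. Domains with every gap bridged in both other knockouts had a gene end within 2 kb in 75 of 97 cases (77.3%, 68.0 to 84.5%). Those with no gap bridged in either had one in 252 of 402 (62.7%, 57.9 to 67.3%). The 2 sets also differed in median fold enrichment (6.88 and 5.63) and in median summed gap (1114 and 1730 bp). The part of these differences in the shares was not tested.

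Bridged gaps mostly overlapped a gene and seldom held a gene start, as gaps between wild-type peaks in general did. A gene was overlapped by 713 of the 852 bridged gaps (83.7%) and by 76.4% of the neighbouring wild-type gaps that Utx-cKO did not bridge. Of 604 gaps at which the start table was complete, 272 (45.0%, 41.1 to 49.0%) had a gene start in 1 of the flanking wild-type peaks, 33 (5.46%) in both flanks, and 18 (2.98%) in the gap itself, while 281 (46.5%) had none in gap or flanks. Of 4358 gaps not bridged in Utx-cKO, 37.5% had a start in 1 flank, 8.86% in both, 4.59% in the gap and 49.1% in none of these, with gaps that were longer on the whole. Ezh2-cKO bridged 36.4% of the 272 and 29.2% of the 281, and Jmjd3-cKO 28.7% and 19.2%. Position was also compared among gaps from 1000 bp to under 2000 bp. Within 5 kb of a gene start, 141 of 201 bridged gaps lay downstream of it (70.1%, 63.5 to 76.0%), against 197 of 339 gaps that Utx-cKO did not bridge (58.1%, 52.8 to 63.2%). Bridged gaps were the shorter ones within this range, so it was split after the values were seen. From 1000 bp to under 1500 bp the downstream share was 71.7% (63.9 to 78.4%, n = 145) in bridged gaps and 63.3% (55.5 to 70.4%, n = 158) in the others. From 1500 bp to under 2000 bp it was 66.1% (53.0 to 77.1%, n = 56) and 53.6% (46.3 to 60.7%, n = 181). The bridged gaps had the higher share in both ranges, but there the intervals overlap, and they cover counting error only. Bridged gaps were still the shorter ones within each range, with median lengths of 1170 against 1232.5 bp and of 1679.5 against 1725 bp. The part of gap length in these shares was not tested. A gene start in 1 flank was found at 45.3% of the bridged gaps and at 39.0% of the gaps not bridged in Utx-cKO between 1000 and 2000 bp, with intervals that overlap (40.3 to 50.5% and 35.4 to 42.7%).

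**Figure D3:**
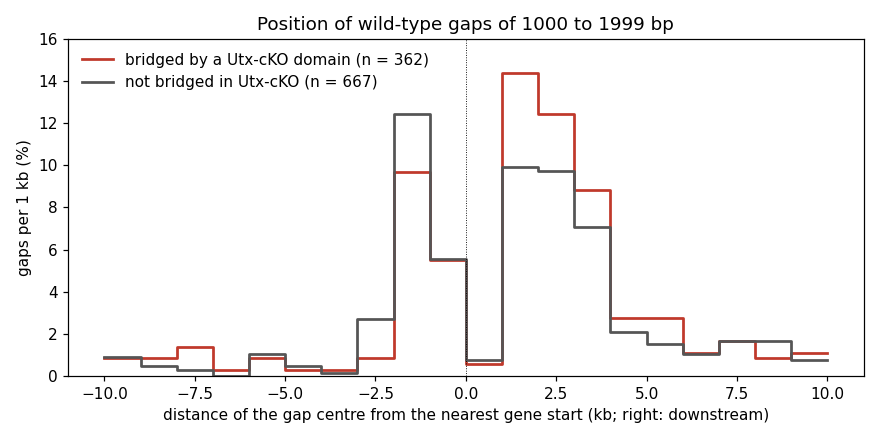
Distance from the centre of a wild-type gap, from 1000 bp to under 2000 bp long, to the nearest gene start (x axis, kb, positive values downstream) against the share of gaps per 1 kb (y axis, %). The 362 gaps bridged by a Utx-cKO domain are drawn in red and the 667 not bridged in Utx-cKO in grey, and the red line is above the grey from 1 to 4 kb downstream.

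The plot of distances to gene starts shows both sets crowded on either side of the start and nearly empty at it, with a larger part of the bridged gaps on the downstream side. The flanks of such a gap were unequal. At the 272 gaps with a start in 1 flank, the wild-type peak over the start had medians of 6.80 in fold enrichment and 2501.5 bp in length, and the other flank 2.59 and 675.5 bp. The peak over the start was the stronger in 258 of the 272 (94.9%, 91.5 to 96.9%). The same held for 1532 of the 1634 gaps not bridged in Utx-cKO (93.8%, 92.5 to 94.8%), where the medians were 7.01 and 2.77, so this asymmetry is shared by the wild-type pairs that stayed apart.

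**Figure D4:**
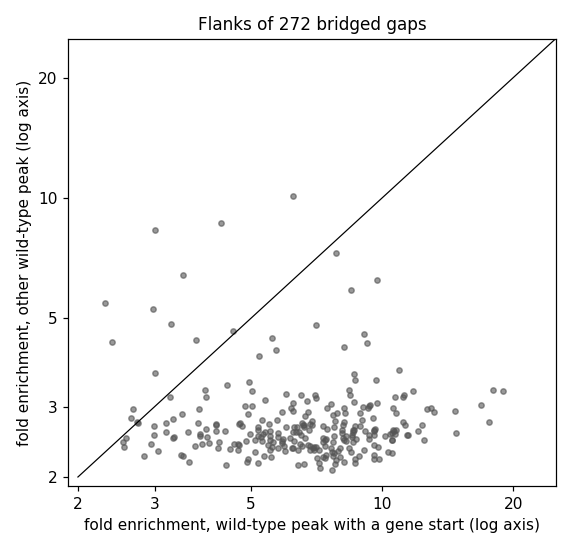
Fold enrichment over input in wild type (both axes logarithmic) of the flank that holds a gene start (x axis) and of the other flank (y axis), 1 point for each of the 272 bridged gaps with a start in 1 flank. The diagonal marks equal values, and 258 points lie below it.

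In the plot of flank fold enrichment, most points form a band along the bottom, with the other flank near the median of 2.59 at any height of the start-bearing flank. A typical bridging domain there joined a strong, long wild-type peak over a promoter to a weak, short one beside it.

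By summed gap length, the largest domain was that of Nfic, a transcription factor of the nuclear factor I family known in mouse for its role in tooth root formation. Its domain (chr10:81399650-81431516, 31867 bp, the 6th longest Utx-cKO peak, fold enrichment 6.45) joined 7 wild-type peaks over 6 gaps of 1201, 5989, 2171, 2329, 1504 and 2293 bp, 15487 bp in all. Ezh2-cKO bridged 1 of these gaps, that of 1504 bp, and Jmjd3-cKO 3, those of 1201, 2171 and 1504 bp. The printed Nfic promoter lies in the wild-type peak of 3521 bp beside the 1504 bp gap.

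Fgfr3, the receptor that limits proliferation of growth-plate chondrocytes, had a domain of 18278 bp (chr5:33720441-33738718, fold enrichment 7.33) over 5 wild-type peaks. Its gaps measured 1951, 1058, 4880 and 1195 bp. Ezh2-cKO bridged all but the 4880 bp gap, with 1 peak of fold enrichment 6.53 over the promoter-side gaps of 1951 and 1058 bp and another over the 1195 bp gap, and Jmjd3-cKO bridged only the 1195 bp gap. The wild-type peak over the Fgfr3 promoter was 3547 bp long with fold enrichment 7.62, and the 4 others were between 234 and 2315 bp long with fold enrichments of 2.20 to 2.43.

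Rxra, the retinoid X receptor that pairs with other nuclear receptors, held 5 bridging domains along its body, with 7 gaps of 22535 bp in all. The longest (chr2:27762685-27776615, fold enrichment 3.14) had gaps of 2484 and 7672 bp, bridged in neither other knockout. The domain over its start (chr2:27676056-27684901, fold enrichment 11.8) had a gap of 1079 bp, bridged in Ezh2-cKO but not in Jmjd3-cKO. Over the 5 domains Ezh2-cKO bridged 2 of the 7 gaps and Jmjd3-cKO 1. Tns1, which encodes the focal-adhesion protein tensin, also held 5 domains, with 6 gaps of 990 to 1609 bp, of which Ezh2-cKO bridged 4 and Jmjd3-cKO 0. In all, 48 genes had 2 or more domains over their body, among them Rara, the retinoic acid receptor that partners Rxra, with 3 domains and 4 gaps (1 bridged in Ezh2-cKO and 0 in Jmjd3-cKO). Tns1 and Rara were picked after their values were seen.

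The longest single gap, 8783 bp, lay in Sema3f, a secreted guidance protein (chr9:107695907-107710276, 14370 bp, fold enrichment 5.14). Ezh2-cKO and Jmjd3-cKO peaks overlapped both flanks there and covered 27.7% and 27.9% of the gap without bridging it. Zc3h12a, an endoribonuclease that degrades inflammatory mRNAs, had a domain (chr4:125114138-125128415, fold enrichment 4.31) with gaps of 7464, 1228 and 1867 bp, of which Ezh2-cKO bridged the shortest and Jmjd3-cKO none. Lrrc8a, a subunit of the volume-regulated anion channel, had a domain (chr2:30236445-30254040, fold enrichment 7.43) with gaps of 2226 and 6230 bp, bridged in neither. Lrrc32, which tethers latent TGF-beta at the cell surface, Syt8, the polarity kinase gene Mark2 and the endosomal adaptor gene Tom1l2 completed the 10 with the largest sums, at 8106, 8010, 7720 and 7694 bp, and none of their gaps was bridged in either other knockout. Of the 10 domains, 7 had no gap bridged in Ezh2-cKO or Jmjd3-cKO, and these sums are long by construction of the ranking.

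Among the domains that joined most wild-type peaks, Plec (the cytolinker plectin, 20897 bp) joined 5 and had 2 of 4 gaps bridged in Ezh2-cKO and 2 in Jmjd3-cKO. The domain of Coro7, which holds the start of Vasn, a TGF-beta-binding protein, joined 4, with 1 of 3 gaps bridged in each. Maz, a zinc-finger transcription factor, had a domain of 15085 bp with fold enrichment 10.3 that also held the starts of Mvp and Pagr1a. Its gaps of 1000, 1387 and 1745 bp were split between the knockouts: Ezh2-cKO bridged the 2 shorter ones and Jmjd3-cKO the 2 longer ones. In Adcy9, an adenylyl cyclase gene, Ezh2-cKO bridged all 3 gaps and Jmjd3-cKO 1. In Lsp1, a leukocyte actin-binding protein gene, Ezh2-cKO bridged 1 of 3 and Jmjd3-cKO 0, and in Myh9, which encodes a non-muscle myosin heavy chain, neither bridged any of 3.

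**Figure D5:**
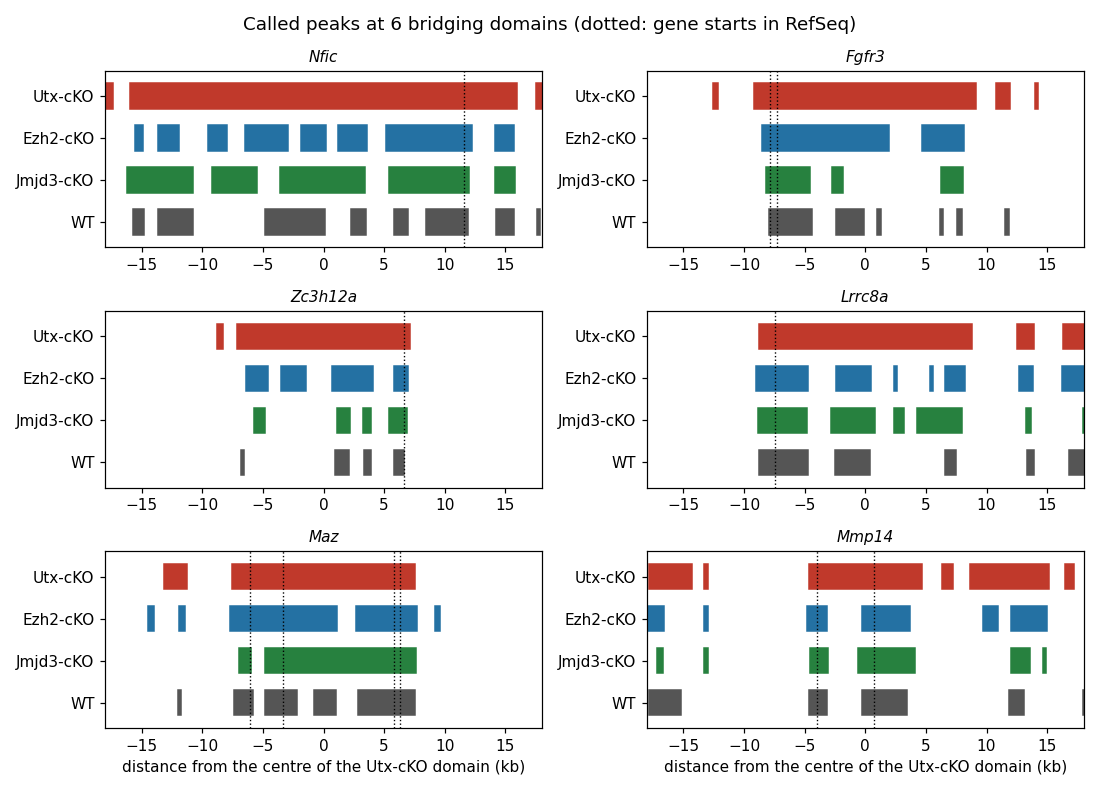
Called peaks (bars) in Utx-cKO, Ezh2-cKO, Jmjd3-cKO and wild type (WT) at 6 bridging domains, against distance from the centre of the Utx-cKO domain (x axis, kb), with dotted lines at RefSeq gene starts. In each panel the top bar at the centre runs unbroken over several wild-type bars, such as 7 at Nfic and 5 at Fgfr3.

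The maps of called peaks show the intermediate pattern at Nfic, Fgfr3, Maz and Zc3h12a, where some gaps are closed in another knockout. At Zc3h12a that is 1 gap, in Ezh2-cKO. They show the open pattern, with no gap closed in either, at Lrrc8a and Mmp14. Among the 402 domains with no gap bridged in either other knockout, the highest fold enrichments were those of Rai1 (23.1, gap 1417 bp), Zfp407 (18.3, gap 1077 bp), Ube2d3 (16.8, gap 1958 bp), Dnmt3a (16.8, gap 1501 bp) and Rad23b (14.8, gap 1082 bp). Rai1 encodes a nuclear regulator of transcription, Ube2d3 a ubiquitin-conjugating enzyme, Dnmt3a a de novo DNA methyltransferase and Rad23b a nucleotide excision repair factor. Rab21, Atl2, Zc3h14, Tmem179b and Mmp14 followed, with fold enrichments of 13.7, 13.3, 13.3, 13.0 and 12.9. At Rai1 the flanking wild-type peaks had fold enrichments of 18.9 and 3.29, at Ube2d3 16.9 and 3.03, and at Dnmt3a 14.8 and 2.57. Mmp14, the membrane-type matrix metalloproteinase needed for skeletal growth in mouse, differed in that both flanks were strong, at 8.85 and 8.32, with the start of Mrpl52 in one and that of Mmp14 in the other. Its gap of 2906 bp (domain chr14:54426254-54435540) was covered to 0.929% in Ezh2-cKO and 13.9% in Jmjd3-cKO.

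Genes were read against the background that 717 of 21887 protein-coding genes (3.28%) had an end within 2 kb of a bridging domain. Among the 14820 with any Utx-cKO peak in that window the share was 4.84%. Lists of 10 to 45 genes are small, so their intervals are wide and no list is called particular. In all, 32 listed genes lay at 31 domains with 37 gaps, of which Ezh2-cKO bridged 17 and Jmjd3-cKO 12, and 14 of the 31 domains had no gap bridged in either. Over all 852 gaps Ezh2-cKO bridged 32.9% and Jmjd3-cKO 26.1%, and 53.4% of all 753 domains had no gap bridged in either. These small counts are not read as a difference from those shares.

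For cartilage matrix and regulators, 3 of 28 genes had a bridging domain (10.7%, 3.71 to 27.2%). Col9a2 and Col9a3 encode chains of collagen IX, which coats the collagen fibrils of cartilage. The Col9a2 domain (chr4:121039534-121042417, 2884 bp, fold enrichment 4.02) had a gap of 963 bp that was bridged in both other knockouts. The Col9a3 domain (chr2:180597806-180613028, 15223 bp) had a gap bridged in Ezh2-cKO but not in Jmjd3-cKO. Fmod, the collagen-binding proteoglycan fibromodulin, had a gap of 2238 bp bridged in neither. Of the 28 genes of hypertrophy and osteogenesis none had a bridging domain, and a count of 0 allows a share of up to 10.7%, taken as 3 counts of the total instead of a Wilson limit.

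Among the signalling lists, Wnt ligands and antagonists had 5 of 32 genes (15.6%, 6.86 to 31.8%), the Hedgehog pathway 3 of 16 (18.8%, 6.59 to 43.0%), FGF ligands and receptors 3 of 17 (17.6%, 6.19 to 41.0%) and TGF-beta and BMP genes 2 of 34 (5.88%, 1.63 to 19.1%). At the Wnt ligands, the gap of Wnt2 (1081 bp) was bridged in both other knockouts, that of Wnt11 (2352 bp) in Ezh2-cKO but not in Jmjd3-cKO, and that of Wnt5a (1086 bp) in neither. At the secreted antagonists, the gap of Sfrp2 (1047 bp) was bridged in Ezh2-cKO but not in Jmjd3-cKO and that of Dkk3 (1086 bp) in neither. Gaps of nearly equal length thus differed between Wnt2, Wnt5a, Sfrp2 and Dkk3 in where they were bridged.

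In the Hedgehog pathway, the transcriptional effectors Gli1 (gap 1498 bp) and Gli2 (gap 1834 bp) were bridged in both other knockouts. The Gli2 domain (chr1:119047599-119054588, 6990 bp, fold enrichment 8.04) coincided closely with the Ezh2-cKO peak at chr1:119047703-119054560. Boc, a Hedgehog co-receptor, had a gap of 980 bp bridged in Jmjd3-cKO but not in Ezh2-cKO. That length is below 4 fragment lengths in Jmjd3-cKO (984 bp) and above them in Ezh2-cKO (924 bp). The part of this in the contrast was not tested. Boc had 2 more domains inside its body, whose gaps were bridged in neither. Fgf18, a ligand that promotes cartilage formation, had gaps of 1017 and 1157 bp, both bridged in Ezh2-cKO and in Jmjd3-cKO by 1 peak each. Fgf21, a circulating metabolic FGF, had a gap of 1410 bp bridged in neither. Of the TGF-beta family, Tgfb1 lay at a domain that overlapped the neighbouring gene Ccdc97 most. Its gaps were 984 and 1316 bp, the shorter bridged in Ezh2-cKO and neither in Jmjd3-cKO. Gdf11 had a gap of 1175 bp bridged in Jmjd3-cKO but not in Ezh2-cKO.

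Of 30 limb and skeletal patterning factors, 5 had a bridging domain (16.7%, 7.34 to 33.6%). Osr2, a zinc-finger factor of joint development, had a gap of 933 bp bridged in both other knockouts, and the T-box factor Tbx2 one of 939 bp bridged in Ezh2-cKO but not in Jmjd3-cKO. The gaps of Dlx2 (1391 bp), of Lmx1b, which sets dorsal limb fate (2389 bp), and both gaps of Hic1 (1110 and 1966 bp) were bridged in neither. Of 39 Hox genes, Hoxd9 and Hoxd10 shared 1 domain, with a gap of 1114 bp that was bridged in both. Of 45 transcription factors of other lineages, 1 had a bridging domain (2.22%, 0.393 to 11.6%): Irx3, with a gap of 1045 bp bridged in Ezh2-cKO but not in Jmjd3-cKO. Wild-type peaks lay at 16 of these 45 genes, against 29 of the 30 patterning factors, so the rule limits this share. Among the 35 of the 45 with a Utx-cKO peak it was 2.86%.

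Adipogenic genes had 2 of 14 (14.3%, 4.01 to 39.9%): Cebpb, a factor of early adipogenesis (chr2:167682387-167693351, 10965 bp, fold enrichment 12.8, gap 1712 bp), and Klf15 (gap 1395 bp), bridged in neither other knockout. Matrix degradation and inflammation had 2 of 30, Mmp14 and Ptges, a prostaglandin E synthase gene (gap 1712 bp, bridged in neither). Markers of other cell types that a cartilage preparation can hold were as follows. Of 16 endothelial markers, Fli1 (gap 1209 bp, bridged in neither) and Plvap (gap 968 bp, bridged in Jmjd3-cKO but not in Ezh2-cKO) had a domain, and of 20 blood cell markers Cd4 (gap 4164 bp) and Cd68 (gap 1168 bp), bridged in neither. The gene that the domain overlapped most was Gtpbp3 for Plvap, Gpr162 for Cd4 and Mpdu1 for Cd68. These 3 markers count only through a gene end within 2 kb of a neighbouring gene's domain. The Plvap gap is shorter than 4 fragment lengths in Jmjd3-cKO (984 bp) but not in Ezh2-cKO (924 bp). None of 15 muscle markers, 20 tendon, synovium and fibroblast markers, 14 genes of Polycomb repressive complex 2 and the H3K27 demethylases, 10 cell cycle inhibitors or 30 housekeeping genes had a bridging domain. Taken the same way, as 3 counts of the total, these counts of 0 allow shares of up to 20%, 15%, 21.4%, 30% and 10%. Wild-type peaks lay at 2 of the 15 muscle markers, so the rule left that list little room for a domain. They lay at 7 of the 20 blood cell markers and 6 of the 16 endothelial markers.

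MicroRNA genes lay under some of the domains. Of 1005 mouse hairpins in the RefSeq table, 26 (2.59%) lay inside 23 domains, and 6 of these lay wholly in a bridged gap. Mature sequences of 2 of the 6 are printed, with the seed (bases 2 to 8) in capitals, because both are widely studied and their hairpins lie in gaps bridged in neither other knockout. They were chosen after the list was seen.
mmu-let-7b-5p: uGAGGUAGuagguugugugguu
mmu-miR-335-5p: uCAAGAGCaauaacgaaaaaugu

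The let-7b hairpin (chromosome 15) lay in a gap of 1996 bp, in a domain of 14245 bp that overlaps no protein-coding gene and whose nearest one, Ppara, is 21971 bp away. Its neighbour let-7c-2 lay in the same domain but under a wild-type peak. The miR-335 hairpin (chromosome 6) lay in a gap of 1574 bp in the domain of Mest, an imprinted gene that hosts it. Mir1191b lay in the 2171 bp gap of the Nfic domain, which Jmjd3-cKO bridged. Mir132 and Mir212 lay in the Hic1 domain, but under a wild-type peak.

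Bridging domains joined 852 of the 6742 neighbouring wild-type pairs. Over chromosomes, the share was highest on chromosome 7, at 98 of 542 (18.1%). It was 4 of 58 (6.90%) on chromosome X, close to the 7.05% of chromosome 13 and the 7.94% of chromosome 16. The 5000 bp limit on the joined peaks cut through a continuous range. Just inside it were Pik3r1 and Osr2, whose longest wild-type peaks measured 4989 and 4985 bp, and just outside it Hes1 and Sesn2, at 5017 and 5037 bp. The 1 bp overlap let in some marginal cases. In 9 domains a wild-type peak was touched over less than 100 bp and in 33 over less than 200 bp. The smallest overlap was 12 bp, at Stk39. With at least 50% of each joined peak required inside the domain, the count of domains was 703 instead of 753.

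The targeted genes and the reference genes of the cartilage programme were not among the domains. Kdm6a, the gene of Utx, had 1 strong peak in every list, of 3968 bp and fold enrichment 17.4 in Utx-cKO, 4439 bp and 14.0 in Ezh2-cKO, 3919 bp and 15.3 in Jmjd3-cKO, and 3727 bp and 12.6 in wild type. Ezh2 had 1 peak in each list, of 2757 bp in Utx-cKO, 2797 bp in Ezh2-cKO, 2548 bp in Jmjd3-cKO and 2412 bp in wild type. These values do not check the genotype labels, since a deletion inside a gene need not alter the peaks called over it. Kdm6b lay under a Utx-cKO peak of 28115 bp that joined wild-type peaks of 5279 and 12350 bp, which kept it outside the rule, and Ezh2-cKO and Jmjd3-cKO kept it in 3 and 2 separate peaks. Sox9, the master regulator of chondrocytes, had 1 peak in each list, of 9749 bp in Utx-cKO, 8929 bp in Ezh2-cKO, 8029 bp in Jmjd3-cKO and 7847 bp in wild type. Col2a1, the main cartilage collagen gene, had a Utx-cKO peak of 26223 bp that joined wild-type peaks of 664 and 16587 bp and is outside the rule for the same reason.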

How the data were processed

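H3K27me3 ChIP and input libraries of 4 genotypes (8 libraries, 1 ChIP library each) were compared through their peak lists. The submitters' processing notes name Bowtie2, ChIPseeker, deepTools 2.4.1, FastQC 0.11.5, HOMER 4.10 and MACS2. Neither the aligner's version nor the genome build was given in the sources used here. The authors' calls were broad ones from paired-end fragments (MACS 2.1.2, per the file headers), each ChIP library against the input of its own genotype, without pooling, at q of 0.05, keeping 1 duplicate per position and scaling the larger library of a pair to the smaller. The deposited lists give a pileup (coverage signal), −log10 p and −log10 q, and a fold enrichment ratio for each peak. Peaks were ranked by them only within a list, and 2 stricter thresholds, of q and of fold enrichment, were applied alike to every list. Values printed side by side from several lists, as for Kdm6a, are not compared.

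A Utx-cKO peak was taken where it overlapped by 1 bp or more at least 2 wild-type peaks, all under 5000 bp. A gap counted as bridged in another list where 1 peak covered it whole. Genes, promoters and microRNAs came from RefSeq tables of GRCm38.p6. The build was checked by shifting genes: 717 genes lay at the domains as placed, and 420 and 428 after shifts of 20 kb. Promoter entries cover 17492 of 21887 protein-coding genes and none on chromosome 18, so results on gene starts use places where every protein-coding gene within 10 kb has an entry. Domains were named by the gene they overlap most, otherwise the nearest. Named were the 10 domains with the largest summed gap, the 10 joining most peaks, the 10 of highest fold enrichment with no gap bridged in Ezh2-cKO or Jmjd3-cKO, up to 4 members of each of 18 gene lists (433 genes, all matched), and Ezh2, Kdm6a, Kdm6b, Sox9 and Col2a1. Members beyond 4 in a list (Sfrp2, Osr2) were added after their values were seen. The domains, lists and rules were chosen with earlier results of these data known. With 1 library per genotype no test was made. The code was checked on simulated peaks: 400 of 400 planted domains and 150 of 150 planted bridged gaps were found among 28057 peaks, with 0 false ones. Simulated peaks outside the planted domains were copies of single wild-type peaks. The check therefore says nothing about error in the real lists. Alternatives were other length limits, overlaps, peak thresholds, equal list sizes, merging, autosomes, gap minimums and gene windows. Tools were matplotlib 3.10.9, scipy 1.17.1, pandas 2.3.3, numpy 2.4.6 and Python 3.11.15.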

Additional observations from a re-analysis of the deposited data

How the results depend on the processing

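No paired analysis was possible because each genotype has 1 ChIP library. Of 69 recomputed values, 37 kept their size and 32 moved. The number of bridging domains (753) moved under 2 stricter peak thresholds: it was 275 with peaks of q 0.001 or less and 74 with fold enrichment of 4 or more. The median gap (1391.5 bp) was then 1465 and 1776 bp. It was 1536.5 bp after peaks within 1 kb were merged, 4487.5 bp after merging within 3 kb, and 1510.5 bp for gaps of 1 kb or more. Gaps also bridged in Ezh2-cKO (32.9%) were 26.7% at fold enrichment of 4 or more, 29.6% and 24.5% after merging within 1 and 3 kb, and 29.5% for gaps of 1 kb or more. Gaps also bridged in Jmjd3-cKO (26.1%) were 29.8% at q of 0.001 or less, 20.7% and 13.4% after merging within 1 and 3 kb, and 22.6% for gaps of 1 kb or more. Domains within 2 kb of a gene end (65.2%) were 60.1% with joined peaks under 3000 bp, 74.5% at q of 0.001 or less, 89.2% at fold enrichment of 4 or more, 68.5% with equal list sizes, and 71.3% after merging within 3 kb. The share was 69.6% with a 5 kb window, 92.3% for overlap anywhere with a gene, and 59.8% for gene starts. Wild-type domains over Utx-cKO peaks (111) were 68 with 50% of each joined peak inside, 36 at q of 0.001 or less, 5 at fold enrichment of 4 or more, 41 with equal list sizes, and 41 after merging within 3 kb, below the Utx-cKO count under each of these settings. In 2 alternatives chosen after the data were seen, gaps with a peak over both flanks were bridged in 42.3% (Ezh2-cKO) and 38.6% (Jmjd3-cKO), and gaps longer than 4 fragment lengths of every list in 29.8% and 23.2%. The cause of these shifts was not tested. The number of fragments and the called threshold limit which weak stretches count as gaps, and Jmjd3-cKO and wild type had the smaller libraries.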
